A study of Homo sapiens with 6 samples.

Results

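Collagens are the triple-helical proteins of the extracellular matrix, and 9 genes that encode collagen chains are described here in HepG2 cells, a human liver cancer line, after knockdown of the long noncoding RNA H19. The genes are COL4A6, COL4A5, COL18A1, COL7A1, COL16A1, COL9A2, COL9A3, COL27A1 and COL6A1. They were selected on measured values, as every row with a collagen chain symbol among the 1998 rows of the authors' deposited table, whose adjusted p (q value) never passes 0.0498. Of 44 human collagen symbols looked for, the other 35 had no row used here, so nothing is said of their level or change. The cells were transfected with an siRNA against H19 (siH19, 3 libraries) or with a control siRNA (siCon, 3 libraries), and collected after 48 h for sequencing of RNA from which ribosomal RNA had been removed. All 6 libraries came from this 1 line, and siH19 is the submitters' name for the group, not a measured knockdown, since the level of H19 itself was not analysed here. Each group is given by 1 combined normalized count per gene, so no spread between single libraries can be shown. Fold changes are siH19 over siCon on the log2 scale, and their standard errors (SE) and adjusted p-values are the authors'. Nothing in the labels ties libraries to separate cultures, so those errors may be technical. Library totals, and with them the depth, are unknown.

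A collagen molecule is wound from a trio of chains, each built on repeats of glycine followed by a pair of other residues. Chains are hydroxylated and assembled in the endoplasmic reticulum, exported in enlarged COPII carriers and crosslinked outside the cell. Type IV collagen forms the sheet of basement membranes, type XVIII sits beside it and carries the antiangiogenic fragment endostatin, and type VII makes the anchoring fibrils under epithelia. Types IX and XVI are fibril-associated collagens with interrupted triple helices, which lie on the surface of fibrils. Type XXVII is itself fibril-forming, and type VI makes beaded microfilaments. In liver, hepatocytes face the blood across a space without a continuous basement membrane, and hepatocytes are a known source of type XVIII collagen.

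All 9 chains were higher in siH19, by 1.22-fold to 1.95-fold, in the authors' deposited table. Of all 1998 rows, 44.7% were higher in siH19 and 55.3% were lower. Because the rows were selected on this same contrast, the count of 9 of 9 is a description and was not tested. The median log2 fold change of the chains was 0.56, against -0.27 over all rows and 0.46 over the 893 rows that were higher. By class, the 4 chains of the basement membrane zone had a median log2 fold change of 0.80, the 3 fibril-associated chains 0.56 and the remaining 2 chains 0.42. The ranges of the classes overlap: 0.41 to 0.96 for basement membrane, 0.29 to 0.74 for fibril-associated and 0.29 to 0.54 for the others. Count also enters these medians. Among the 100 rows nearest in mean count, the smallest absolute log2 fold change was 0.49 for COL7A1 and 0.35 for COL4A6. It was 0.22 for COL9A3 and 0.21 for COL27A1, so class and count cannot be told apart here.

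**Figure D1:**
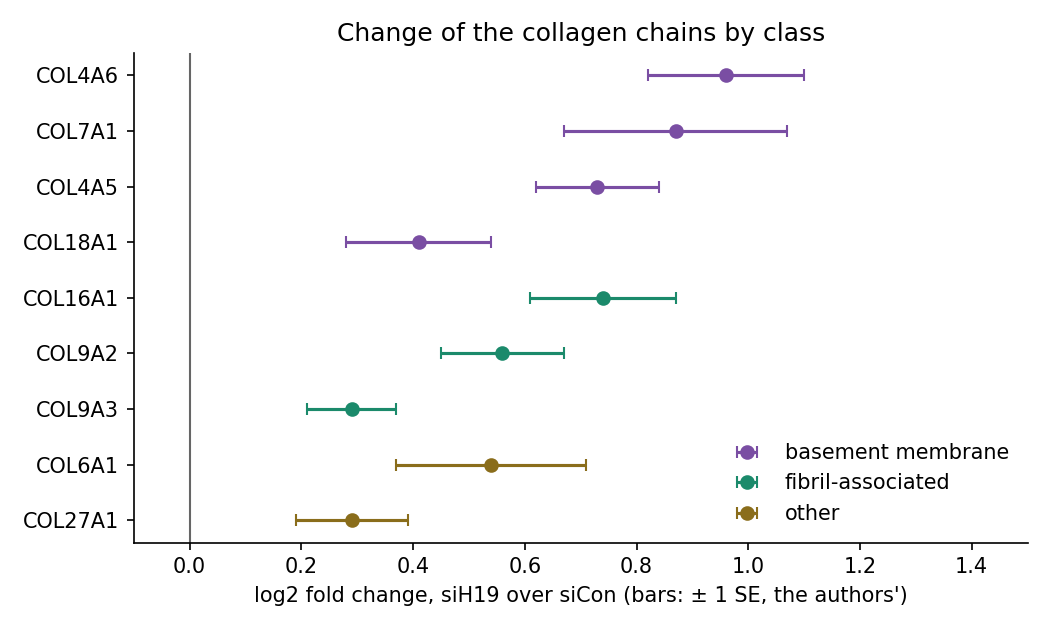
Log2 fold change of each collagen chain (siH19 over siCon, horizontal axis) with the authors' standard error as bars, grouped by class. All 9 points lie above 0, from 0.29 for COL9A3 and COL27A1 to 0.96 for COL4A6, and the classes overlap.

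The pair of type IV chains was among the most changed. COL4A6, the alpha6 chain of basement membrane collagen, had a normalized count of 298.2 in siH19, against 153.3 in siCon, in the authors' deposited table. Its log2 fold change was 0.96 ± 0.14 (SE) in the authors' deposited table, rank 45 among the 893 higher rows, with an adjusted p written as 0, which means below the table's precision of 1e-06. COL4A5, the alpha5 chain, mutated in X-linked Alport syndrome of the kidney, had 675.6 in siH19 and 407.3 in siCon. The authors' deposited table gave it a log2 fold change of 0.73 ± 0.11 (SE) and again an adjusted p of 0. The alpha5 and alpha6 chains are known to join in 1 network, in smooth muscle and some epithelial basement membranes. Per kb of exon, the level of COL4A6 was 0.564 times that of COL4A5 in siH19 and 0.481 times in siCon. The fold changes of these 2 genes differed by 0.23, which is 1.29 times their joined SE, so their rises are not told apart.

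COL4A5 and COL4A6 lie head to head on chromosome X and are transcribed away from each other, from RefSeq starts that are 380 bases apart. Their promoter windows, from 250 bases before the start to 50 after it, are shown because these neighbours rose together. They were taken from RefSeq on GRCh38.p14, the COL4A5 window from chrX:108439588-108439887 on the + strand and the COL4A6 window from chrX:108439409-108439708 on the - strand. The capitals mark the 121 bases that both windows share, read from opposite strands.
COL4A5: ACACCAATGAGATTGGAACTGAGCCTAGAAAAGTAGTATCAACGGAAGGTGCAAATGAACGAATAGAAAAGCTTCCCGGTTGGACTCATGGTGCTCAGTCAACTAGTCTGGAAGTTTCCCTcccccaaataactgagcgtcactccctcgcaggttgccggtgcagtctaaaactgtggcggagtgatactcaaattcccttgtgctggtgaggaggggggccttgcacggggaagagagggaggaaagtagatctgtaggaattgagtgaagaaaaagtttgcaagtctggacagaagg
COL4A6: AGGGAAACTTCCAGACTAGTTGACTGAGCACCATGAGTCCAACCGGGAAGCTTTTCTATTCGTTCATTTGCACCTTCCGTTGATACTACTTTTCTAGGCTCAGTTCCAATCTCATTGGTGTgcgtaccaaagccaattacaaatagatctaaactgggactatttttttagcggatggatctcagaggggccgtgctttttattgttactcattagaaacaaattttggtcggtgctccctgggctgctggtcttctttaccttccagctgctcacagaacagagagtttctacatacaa
The shared stretch has a GC content of 44.6%, and the whole windows have 49.3% for COL4A5 and 43.7% for COL4A6, against a median of 58.7% over all 35116 promoter windows of the RefSeq table. Neither window shown holds a GC box (GGGCGG, searched on both strands), a motif found in 45.0% of all windows. Both hold the CCAAT box (CCAAT, both strands), 2 matches of which lie in the shared stretch, and COL4A6 has 1 more outside it. That motif is in 34.6% of all windows, so its presence is common. A second COL4A6 start lies 1036 bases further downstream. Its promoter window, not shown, holds 1 GC box and no CCAAT box, the reverse of the COL4A6 window shown. The deposited gene values do not say which start was used, so the motifs of the transcribed COL4A6 promoter are not known.

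**Figure D2:**
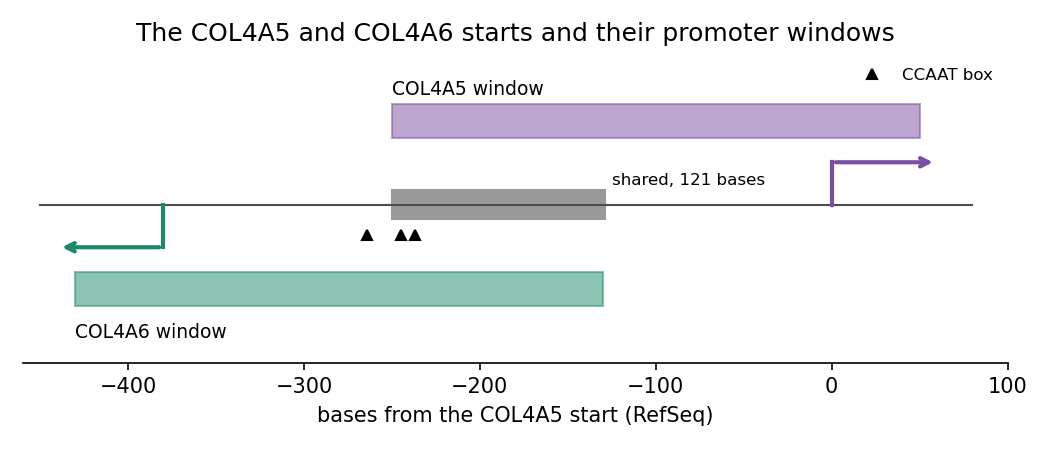
Map of the COL4A5 and COL4A6 starts (arrows), in bases from the COL4A5 start, with the 300-base promoter windows as coloured bars, the 121 shared bases in grey and CCAAT matches as triangles. The starts point away from each other and lie 380 bases apart.

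COL18A1 and COL7A1 are the other chains of the basement membrane zone, and both were higher in siH19. COL18A1, the type XVIII chain, had a normalized count of 3040.3 in siH19 and 2288.2 in siCon in the authors' deposited table. Its log2 fold change there was 0.41 ± 0.13 (SE), with an adjusted p of 0.0124, the smallest rise of the 4 basement membrane zone chains. COL7A1, the chain of anchoring fibrils, had 83.9 in siH19 and 46.2 in siCon, and its log2 fold change in the authors' deposited table was 0.87 ± 0.20 (SE), with an adjusted p of 2.45e-04. This SE was the widest of the 9, at the lowest mean count, 65.12. COL18A1 has 2 RefSeq windows, with GC contents of 86.7% and 66.3% and with 9 and 1 GC boxes, so its starts differ widely in base composition. The COL7A1 window has 62.3% GC and 3 GC boxes.

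The fibril-associated chains spanned the range of changes. COL16A1, the type XVI chain, had 313.0 in siH19 and 187.4 in siCon, and the authors' deposited table gave a log2 fold change of 0.74 ± 0.13 (SE) and an adjusted p of 1e-06. Type IX collagen, which decorates the type II fibrils of cartilage, is made of alpha1, alpha2 and alpha3 chains, of which the alpha2 and alpha3 genes had rows. COL9A2 had 803.4 in siH19 and 545.0 in siCon, a log2 fold change of 0.56 ± 0.11 (SE) in the authors' deposited table, with an adjusted p of 4e-06. COL9A3 had 1675.1 in siH19 and 1370.0 in siCon, a log2 fold change of 0.29 ± 0.08 (SE) in the authors' deposited table, with an adjusted p of 0.00456. The rises of COL9A2 and COL9A3 differed by 0.27, or 1.99 times their joined SE. Per kb, COL9A2 stood at 0.551 times the level of COL9A3 in siH19 and at 0.457 times in siCon. COL9A3 overlaps TCFL5 on the opposite strand, which was also higher, at 0.31 in the authors' deposited table. The use of strand in counting is not given in the sources used here, and reads of that pair may be shared. The same limit holds for COL18A1, which overlaps SLC19A1, COL18A1-AS1 and COL18A1-AS2 on the opposite strand. COL16A1, COL4A5 and COL4A6 also overlap annotated genes on the opposite strand, and none of these overlapping genes has a row.

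The remaining chains belong to other assemblies. COL27A1, a fibril-forming chain known from cartilage, had 2256.7 in siH19 and 1845.8 in siCon, with a log2 fold change of 0.29 ± 0.10 (SE) in the authors' deposited table. Its adjusted p of 0.019 was the largest of the 9, and genes beyond the authors' threshold are not in the table, so no value just outside it can be given. COL6A1, the alpha1 chain of type VI collagen, had 132.5 in siH19 and 91.1 in siCon, with a log2 fold change of 0.54 ± 0.17 (SE) and an adjusted p of 0.0123 in the authors' deposited table. COL18A1 and COL6A1 lie 0.468 Mb apart on chromosome 21, and their rises, 0.41 and 0.54, differ by 0.13. Chains on different chromosomes could be closer, such as COL9A2 and COL6A1, which differ by 0.02. Of all 36 pairs of chains, 26 lay within 2 joined SEs, so closeness is not particular to these neighbours.

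Levels of different genes were compared as normalized counts per kb of merged exons, which spanned 47.1-fold over the 9 chains in siH19 and 67.8-fold in siCon. COL18A1 and COL9A3 led, with 356.6 and 346.0 per kb in siH19 and with 268.4 and 283.0 per kb in siCon. COL9A2 (190.5 in siH19, 129.2 in siCon) and COL27A1 (161.3 in siH19, 132.0 in siCon) followed. COL4A5 had 56.94 per kb in siH19 and 34.33 in siCon. COL16A1, COL4A6 and COL6A1 were close together, at 33.77, 32.12 and 24.8 per kb in siH19 and at 20.22, 16.51 and 17.06 per kb in siCon. COL7A1 was lowest, at 7.575 per kb in siH19 and 4.174 per kb in siCon. The neighbours COL18A1 with COL9A3, COL9A2 with COL27A1, and COL4A6 with COL6A1 stood in the opposite order in the 2 groups, and with 1 value per group the spread behind these orders is unknown. With the longest transcript as length, COL9A3 stood above COL18A1 and COL27A1 above COL9A2 in siH19, so these orders also rest on the length used. Summed over the chains, the level was 1209.6 per kb in siH19 and 904.9 per kb in siCon, a ratio of 1.34. Basement membrane zone chains made up 37.5% of that sum in siH19 and 35.7% in siCon, and fibril-associated chains 47.1% in siH19 and 47.8% in siCon. These shares rest largely on single chains and on the length used. COL18A1 alone made up 29.5% of the sum in siH19 and 29.7% in siCon, and COL9A3 28.6% in siH19 and 31.3% in siCon.

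**Figure D3:**
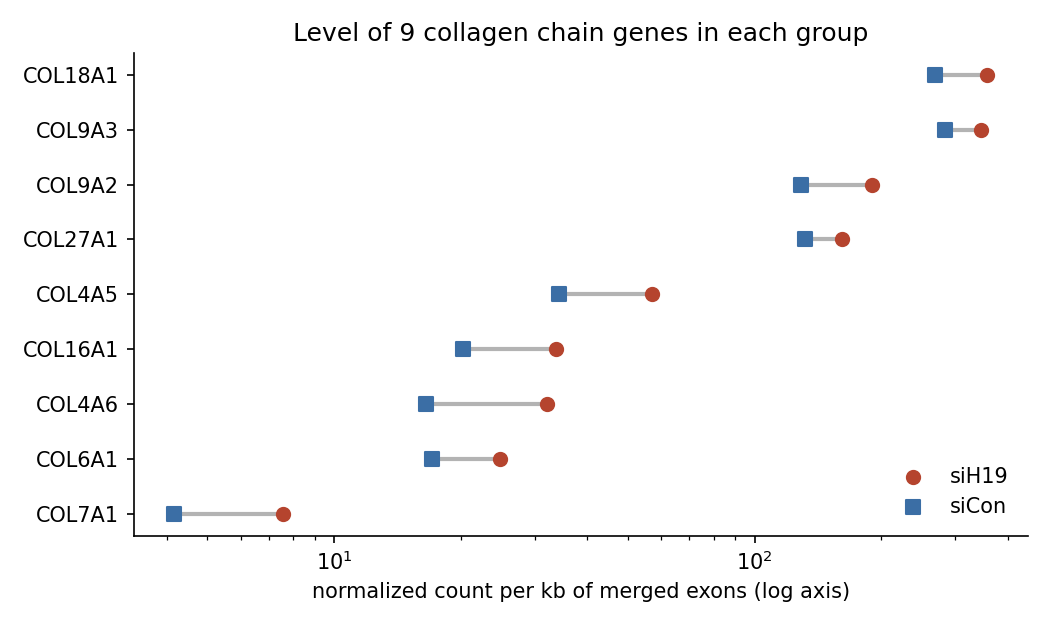
Normalized count per kb of merged exons (log axis) of each collagen chain in siH19 (red circles) and siCon (blue squares), 1 combined value per group. The siH19 point lies to the right for all 9 chains, from COL7A1 at 7.575 per kb to COL18A1 at 356.6 per kb in siH19.

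The largest fold changes were at chains of low count and the smallest at chains of high count, and the selection itself depends on the count. COL7A1 and COL4A6, at mean counts of 65.12 and 225.9, had the largest changes, and COL9A3 and COL27A1, at 1525.62 and 2047.62, the smallest, in the authors' deposited table. COL6A1 departed from this order, with a change of 0.54 at a mean count of 112.09. Among the 100 rows nearest to COL7A1 in mean count the smallest absolute log2 fold change was 0.49, and among the 100 rows nearest to COL27A1 it was 0.21. A rise of the size seen at COL27A1 would therefore hardly appear in the table at the count of COL7A1. Set beside rows of like count, COL4A6 exceeded the median absolute change of 0.51, COL7A1 that of 0.66 and COL16A1 that of 0.49. COL4A5, COL9A2 and COL18A1 also exceeded the medians of their rows, 0.43, 0.41 and 0.35. COL9A3, COL27A1 and COL6A1, at 0.29, 0.29 and 0.54, lay below the medians of their rows, 0.39, 0.36 and 0.59. Of the 36 pairs of chains, 10 differed in fold change by more than 2 joined SEs, each with COL4A6, COL7A1, COL16A1 or COL4A5 as the more changed member. The joined SE takes the errors of a pair as independent, which the table does not show.

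**Figure D4:**
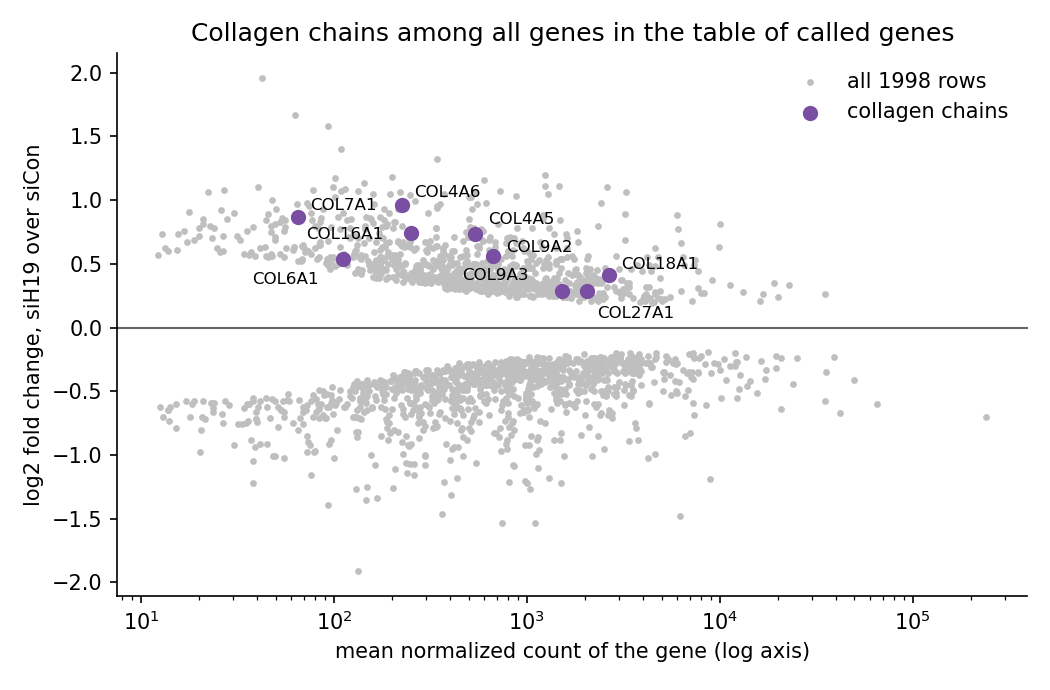
Log2 fold change (siH19 over siCon) against mean normalized count (log axis) for all 1998 rows (grey) and the 9 collagen chains (purple). The band around 0 is empty because the table holds called genes, and it widens at low counts, where COL7A1, COL6A1 and COL4A6 lie.

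The genes listed for folding, modification or export of collagens were lower wherever they had a row. Genes outside this list were not counted. Of 31 symbols 6 were in the table and all 6 fell in siH19 by the authors' calls, beside 55.3% of all rows. Their median on the log2 fold change scale was -0.46, and that of all rows was -0.27. P4HA1, the catalytic subunit of prolyl 4-hydroxylase, had a normalized count of 2665.1 in siH19 and 4904.9 in siCon, a log2 fold change of -0.88 ± 0.10 (SE) in the authors' deposited table. The COPII coat genes SEC24D, mutated in a bone fragility syndrome, and SEC23A, mutated in a disorder of skull formation, stood at -0.57 ± 0.10 and -0.22 ± 0.07 (SE) in the authors' deposited table. MIA2 and CTAGE5, at -0.49 ± 0.11 and -0.24 ± 0.09 (SE) in the authors' deposited table, act at endoplasmic reticulum exit sites and are a single gene in GENCODE 29, so they are not independent rows. TMEM38B, an ion channel of the endoplasmic reticulum mutated in brittle bone disease, stood at -0.43 ± 0.13 (SE) in the authors' deposited table. Summed over the 6 rows, the normalized count was 25458.4 in siH19 and 32005.9 in siCon.

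Crosslinking enzymes were divided, with 3 of 4 listed genes higher, out of 17 symbols, beside 44.7% of all rows. LOX, the lysyl oxidase that crosslinks collagen and elastin, had 344.9 in siH19 and 634.7 in siCon, a log2 fold change of -0.88 ± 0.15 (SE) in the authors' deposited table. Its relatives LOXL3 and LOXL4 were higher, at 0.78 ± 0.21 and 0.33 ± 0.10 (SE) in the authors' deposited table, LOXL3 at a mean count of only 20.04. TGM2, a transglutaminase that also crosslinks matrix proteins, stood at 0.49 ± 0.11 (SE) in the authors' deposited table.

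Partners of collagens in the basement membrane were higher in all 6 rows listed, out of 25 symbols, beside 44.7% of all rows. Their median log2 fold change was 0.38, below the 0.46 of all higher rows. NID1 (nidogen), which links laminin to type IV collagen, had 4420.5 in siH19 and 2120.2 in siCon, a log2 fold change of 1.06 ± 0.08 (SE) in the authors' deposited table. SPARC, a secreted protein that binds type IV collagen, stood at 0.65 ± 0.12 (SE), and HSPG2, the proteoglycan perlecan, at 0.39 ± 0.11 (SE) in the authors' deposited table. The laminin chain LAMA5, the fibulin FBLN1 and FRAS1, a basement membrane protein, stood at 0.36 ± 0.12, 0.31 ± 0.10 and 0.26 ± 0.07 (SE) in the authors' deposited table. All 3 fibril-associated matrix genes listed, out of 18 symbols, were higher too, beside 44.7% of all rows: matrilin MATN3 (0.80 ± 0.11), fibrillin FBN1 (0.60 ± 0.22, at a mean count of 26.67) and THBS1 (0.55 ± 0.09) in the authors' deposited table. Matrilins bind type IX collagen in cartilage.

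Receptors and proteases moved in both directions, with 2 of 3 listed receptors higher, out of 19 symbols, beside 44.7% of all rows. DDR1, a receptor tyrosine kinase activated by collagen, had 1243.3 in siH19 and 855.1 in siCon, and ADGRG1, an adhesion receptor for type III collagen, had 136.2 in siH19 and 67.2 in siCon. The authors' deposited table gave log2 fold changes of 0.54 ± 0.09 and 1.02 ± 0.17 (SE) for them, and of -0.29 ± 0.08 (SE) for ITGA2, the alpha2 integrin chain that binds collagens and laminins. Of 4 listed genes of matrix breakdown, out of 23 symbols, 2 were higher and 2 lower, near the shares of 44.7% and 55.3% over all rows. The membrane-bound collagenase MMP14 and the aggrecanase ADAMTS4 stood at 0.64 ± 0.14 and 0.90 ± 0.17 (SE), and the proteases MMP15 and MMP3 at -0.48 ± 0.11 and -0.85 ± 0.19 (SE) in the authors' deposited table.

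**Figure D5:**
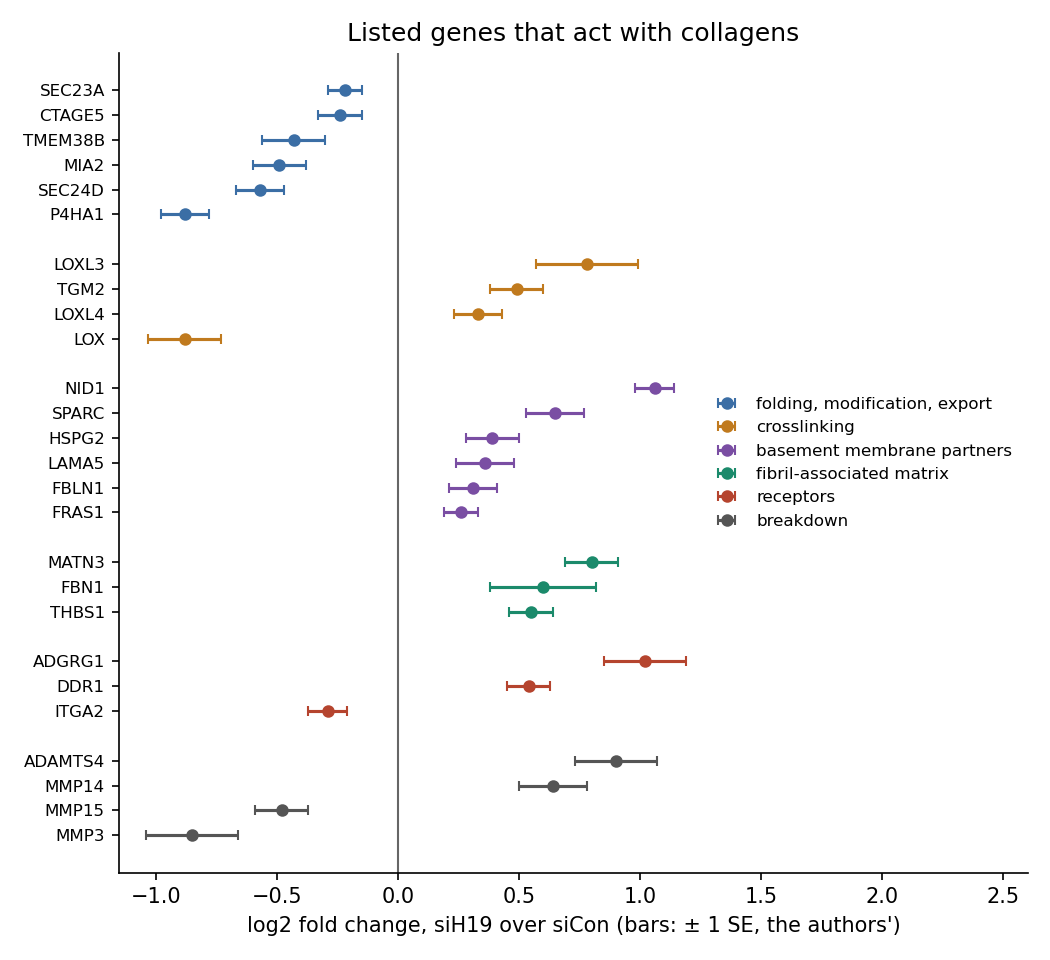
Log2 fold change (siH19 over siCon) with the authors' standard error for the listed genes that act with collagens, coloured by role. All 6 genes of folding, modification and export lie below 0, all 6 basement membrane partners above it, and crosslinking enzymes, receptors and proteases lie on both sides.

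The listed hepatocyte markers with a row were lower, in a table where 55.3% of all rows were lower and 44.7% higher. Hepatocyte genes outside the list were not counted. Of 12 hepatocyte markers 11 had rows and all 11 were lower, by log2 fold changes of -0.33 to -0.88, with a summed normalized count of 357384.2 in siH19 and 554488.7 in siCon in the authors' deposited table. ALB (albumin), a defining product of hepatocytes, was abundant in both groups, with 32768.0 in siH19 and 51776.1 in siCon. The lipoprotein genes APOB, APOA2 and APOA1 stood at -0.70 ± 0.09, -0.58 ± 0.07 and -0.33 ± 0.10 (SE) in the authors' deposited table. FGA and FGG, which encode fibrinogen chains, stood at -0.69 ± 0.08 and -0.46 ± 0.08 there. SERPINA1, the antitrypsin gene, stood at -0.60 ± 0.08 and AFP, which encodes alpha-fetoprotein, at -0.35 ± 0.07 in the authors' deposited table. Stellate cells and fibroblasts make most of the collagen in liver. Of 12 of their markers the 1 with a row was ACTA2, with 484.4 in siH19 and 861.1 in siCon. Other genes of these cells were not counted, so the fall of ACTA2 gives no direction for such genes as a set. The 1 of 8 endothelial markers with a row was LYVE1 (52.7 in siH19, 104.7 in siCon), which overlaps the listed gene MRVI1, and the 2 of 7 blood cell markers were LYZ and CD68, at -0.64 ± 0.08 and -1.21 ± 0.11 (SE) in the authors' deposited table. Of 6 bile duct markers the 2 with rows, CD24 and SPP1, were higher, at 1.20 ± 0.09 and 0.53 ± 0.09 (SE) in the authors' deposited table. Levels of markers with no row are unknown, and the part of these shifts in the collagen values was not tested. The cultures were of 1 line, so a marker's name gives the cell type where the gene is known, not cells present here. In RNA from whole cultures, a change in all cells and a change in some of them cannot be told apart.

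The coding sequences show the collagen repeat in each chain, in the longest complete coding transcript of GENCODE 29. A run was counted where a glycine codon (GGN) recurred at steps of 3 codons. COL27A1 had the longest run, 217 triplets, and 3 separate runs of at least 5 triplets. The longest run of COL9A2 and of COL9A3 was 113 triplets. COL6A1, COL7A1 and COL16A1 had longest runs of 87, 75 and 57 triplets. COL4A5 and COL4A6 had the most separate runs of at least 5 triplets, 23 and 26, with a longest run of 42 and 38. COL18A1 had 16 such runs and the shortest longest run, 30 triplets. GC content of the coding sequence was 57.2% for COL4A6 and 55.5% for COL4A5, the lowest of the chains, and 63.7% to 71.6% for the other 7, against a median of 51.8% over all rows with a coding transcript.

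The 3' untranslated regions (3' UTRs) of the chains were searched for sites of a few microRNAs, small RNAs that bind mRNAs through their seed, bases 2 to 8. The miR-29 family is known to repress many collagen mRNAs, let-7 can be bound by H19, and miR-675 is processed from H19 itself. The mature forms from RefSeq, with the seed in capitals, are shown because their seeds define the sites searched.
hsa-miR-29a-3p: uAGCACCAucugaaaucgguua
hsa-let-7a-5p: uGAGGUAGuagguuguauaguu
hsa-miR-675-5p: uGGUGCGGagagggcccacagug
A match to the miR-29 seed (TGGTGCT) was found in 5 of the 9 chains, COL4A6, COL4A5, COL7A1, COL16A1 and COL27A1, and in 16.3% of 1910 rows with a 3' UTR. The site with 10 bases on each side is given for the 4 most changed chains, with the match in capitals.
COL4A6: tctgtcaagcTGGTGCTactgtttgat
COL7A1, first of 2: tccctcccctTGGTGCTagaggcttgt
COL7A1, second of 2: tgtgatgacaTGGTGCTgattctgggg
COL16A1: tgggttcctcTGGTGCTgcagccagag
COL4A5: ctgccgtcaaTGGTGCTactatatatg
The 4 chains shown, with log2 fold changes of 0.73 to 0.96, were picked by their change in the contrast that selected the rows. The other 5 chains hold 1 match between them, in COL27A1. This split is a description, and a link between matches and size of change was not tested. Among all rows with this match 48.2% were higher in siH19, beside 44.7% of all rows. The let-7 match (CTACCTC) was in COL4A6 and COL27A1 and in 11.5% of all rows searched, of which 47.0% were higher. No chain held a miR-675-5p match (CCGCACC), a motif in 3.93% of the rows. These matches are letters in an annotated 3' UTR and do not show binding, and microRNA levels were not measured. COL4A6 also holds GCAGTAC, a heptamer whose 155 carriers were higher in 86.5% of cases, and COL18A1 holds CATCAAA, whose 295 carriers were higher in 26.1%. Both heptamers had been picked on the fold changes of this table, so their shares are a description.
COL4A6: aattggctatGCAGTACattgtattct
COL18A1: aacacggccaCATCAAAgaggctgagg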

How the data were processed

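RNA-seq libraries of HepG2 cells (siH19 and siCon, 3 each) were made with a strand-specific kit after ribosomal RNA depletion and read as pairs of 76 cycles, per the labels' protocols. The submitters' processing notes name STAR 2.5.0a, Cufflinks 2.2.1, DESeq2 1.0.0 and hg19, with no role or order, and annotation, multi-mapping and use of strand are not given in the sources used here. Per the file headers, the authors deposited log2 group counts, a log2 fold change and its SE. The authors' mean count is a normalized signal without whole reads, and the q value deposited by the authors is an adjusted p-value, under 0.05 in every row. The fold change equalled the difference of the group values within 0.01.

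Group values were turned into linear counts and divided by merged exon length from GENCODE 29, which matched 98.8% of the rows, 53 of them by an older symbol (Python 3.11.15, pandas 2.3.3). Annotation and RefSeq sequences are on GRCh38, so no gene coordinates were joined to the table. No test was added, since the table holds 1 value per group and the chains were selected on the contrast, and the functions that search sequence were tested on simulated data. The members and the 12 gene lists were chosen with earlier results of these data known. Named genes are all collagen chain rows and every listed gene of each partner list, or the 8 of highest mean count where more than 8 were listed. MRVI1 and TCFL5 are named as overlapping rows, and SLC19A1, COL18A1-AS1 and COL18A1-AS2 as overlapping genes without a row. GLDN, MBL2 and EDA were picked with their values in view, as was the comparison with rows of like count. Promoter windows matched 7 of the 9 chains, all except COL9A3 and COL6A1. The alternatives were other thresholds, filters, pseudocounts, centring and lengths.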

Additional observations from a re-analysis of the deposited data

How the results depend on the processing

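All 9 chains were higher in siH19 with the deposited fold change, with the difference of the group values, with a pseudocount of 10 (median 0.55 on the log2 scale) and after subtraction of the median over all rows, which raised their median from 0.56 to 0.83. The number of higher chains was 6 at a q under 0.01, 8 without COL9A3, which overlaps another listed gene, 4 at a mean count at or above the table's median and 4 among rows changed at least 1.5-fold. These counts are smaller because fewer of the 9 rows meet each condition. All 9 rows were higher from the start, so no subset of them could hold a lower chain. The difference of the group values is the fold change itself within 0.01. A pseudocount keeps the sign of a change, and subtracting a negative median raises it, so these settings could not turn a direction either. The median log2 fold change was 0.73 at a q under 0.01, 0.65 without COL9A3 and 0.35 at the higher counts. With the longest transcript as length, levels per kb were 1.19 to 1.94 times as high, and COL9A3 (670.8 in siH19) stood above COL18A1 (461.6 in siH19), the reverse of the order with merged exons, as did COL27A1 (289.7 in siH19) above COL9A2 (278.3 in siH19). No paired analysis was possible because the table gives 1 combined value per group. For the same reason replicates could not be left out in turn, and another normalization or count test was not run. The depth is unknown, and chains with a low count, COL7A1 first, have the widest errors.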

Other observations

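Collagen-like repeats also occur in proteins that are not collagens. Besides the 9 chains, 3 rows of the table held a run of at least 10 triplets that each open with a glycine codon: GLDN (28 triplets), MBL2 (12) and EDA (11). GLDN, the gliomedin of peripheral nerve nodes, had a normalized count of 28.8 in siH19 and 17.8 in siCon, a log2 fold change of 0.70 ± 0.22 (SE) in the authors' deposited table. EDA, the ligand ectodysplasin, had 265.0 in siH19 and 177.3 in siCon, a log2 fold change of 0.58 ± 0.14 (SE) in the authors' deposited table. MBL2, the mannose-binding lectin that liver secretes into plasma, had 364.6 in siH19 and 541.2 in siCon, a log2 fold change of -0.57 ± 0.14 (SE) in the authors' deposited table. The repeat was thus found in rows of both directions, and the secreted liver protein was the one that was lower. These genes were found by searching the coding sequences of the rows and were not tested as a group.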
